A study of Mus musculus with 7 samples.

Results

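The unfolded protein response and the chaperones of the endoplasmic reticulum (ER) were read from 31 genes, listed by mouse symbol, in RNA of pancreatic islets from 7-day-old mice. All 31 were found by symbol among the 49315 mouse genes of the count files, and all 31 passed the filter on low counts that left 19893 genes for testing. The list holds 4 sensors and transcription factors, 12 folding chaperones and cofactors, 11 genes of ER-associated degradation and 4 genes of protein translocation, export and the ER membrane. Control islets came from Nrf2lox/lox mice, whose alleles of Nrf2 are flanked by recombination sites (3 pools, numbered 1, 2 and 4). βNrf2KO islets came from mice labelled with a β-cell specific deletion of Nrf2 (4 pools, numbered 1, 2, 3 and 4). Each library was made from RNA pooled from 5 animals, per the protocol in the labels, while the sample titles number single mice. The libraries are called pools here, and an error describes the spread between them, whichever of these they are. The promoter that drove Cre is not given in the sources used here. Because whole islets were sequenced, fewer cells of a type and less RNA per cell cannot be told apart.

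β-cells make and secrete large amounts of insulin, which folds in the ER and forms its disulfide bonds there. When unfolded protein accumulates in the ER, the membrane sensors IRE1 (gene Ern1), ATF6 and PERK start the unfolded protein response. IRE1 splices the mRNA of Xbp1 into the form that encodes an active transcription factor, and ATF6 is cut in the Golgi to release another. Both factors bind promoter elements of chaperone and degradation genes, and so raise folding capacity and the disposal of misfolded protein. Counts per gene read the RNA of these factors but neither the splicing of Xbp1 nor the cutting of ATF6.

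The pools held 18187382 to 25373105 counts. The mitochondrial share of counts ran from 14.6% (pool 4) to 51.8% (pool 2) among the controls and from 10.02% to 27.7% in the βNrf2KO pools. The targeted gene Nfe2l2, which encodes Nrf2, ranged from 5.44 to 6.43 log2 CPM (CPM are counts scaled to a common library size) in control and from 5.86 to 6.08 in βNrf2KO pools. Its mean was not lower in the libraries labelled βNrf2KO (log2 fold change 0.08 ± 0.23, edgeR adjusted p = 0.911), and the deleted exons and the share of β-cells in the islets are not given in the sources used here. Cre had 0 counts in every control pool and 23 to 73 in the βNrf2KO pools. Endocrine markers of the islet summed to between 24031 and 65555 CPM in control and between 44024 and 68425 CPM in βNrf2KO pools, and 0 of the 15 markers was at 0 throughout. Fitted values of these markers were higher in βNrf2KO for 10 and lower for 5 (median log2 fold change 0.36), with 0 past the adjusted threshold, and control pool 2 held the lowest sum. The part of the endocrine share in the values of the 31 genes was not tested. The 31 genes together took 0.412% to 0.777% of all counts in control and 0.672% to 0.774% in βNrf2KO pools. As a share of counts outside the mitochondrial genome they took 0.806%, 0.857% and 0.910% in the controls (pools 1, 2 and 4). The corresponding shares were 0.930%, 0.947%, 0.976% and 0.859% in βNrf2KO pools 1, 2, 3 and 4. The groups overlapped on both scales.

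Levels per length were compared in RPKM (CPM divided by gene length in kilobases), with library sizes scaled by TMM, the normalization that trims extreme genes. Calr, which encodes the lectin chaperone calreticulin, had the highest level in control islets, 285 ± 52.6 RPKM (SD, n = 3), and ranked 38 among all tested genes. Hsp90b1 (GRP94) and Hspa5 (BiP), the ATP-dependent chaperones of the ER lumen, followed at 200.3 ± 29.0 and 195 ± 37.7 RPKM, ranks 50 and 51. The control pools of Calr, at 246 to 345 RPKM, lay above those of both, while Hsp90b1 (172 to 229.8 RPKM) and Hspa5 (152 to 222 RPKM) did not differ beyond the spread of the pools. Below them stood Herpud1 at 105 ± 36.9 RPKM, Dnajb9 at 94.1 ± 22.1, Canx at 66.4 ± 19.4 and Xbp1 at 64.8 ± 5.57. Of the sensors, Atf6b was at 21.3 ± 3.61 RPKM, Ern1 at 17.6 ± 3.95 and Atf6 at 15.3 ± 2.52. Ern1 overlapped both of the others, while every control pool of Atf6b (19.0 to 25.5 RPKM) lay above every control pool of Atf6 (13.0 to 18.0 RPKM). Without division by length that order reversed, at 52.3 to 70.3 CPM for Atf6b and 120 to 166 CPM for Atf6. Their annotated lengths were 2757 and 9231 bases. Here as for the other genes, the order in RPKM depends on the annotated length. The lowest were Edem2 at 8.53 ± 1.71 and Derl2 at 4.91 ± 1.85 RPKM, ranks 4165 and 6752.

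**Figure D1:**
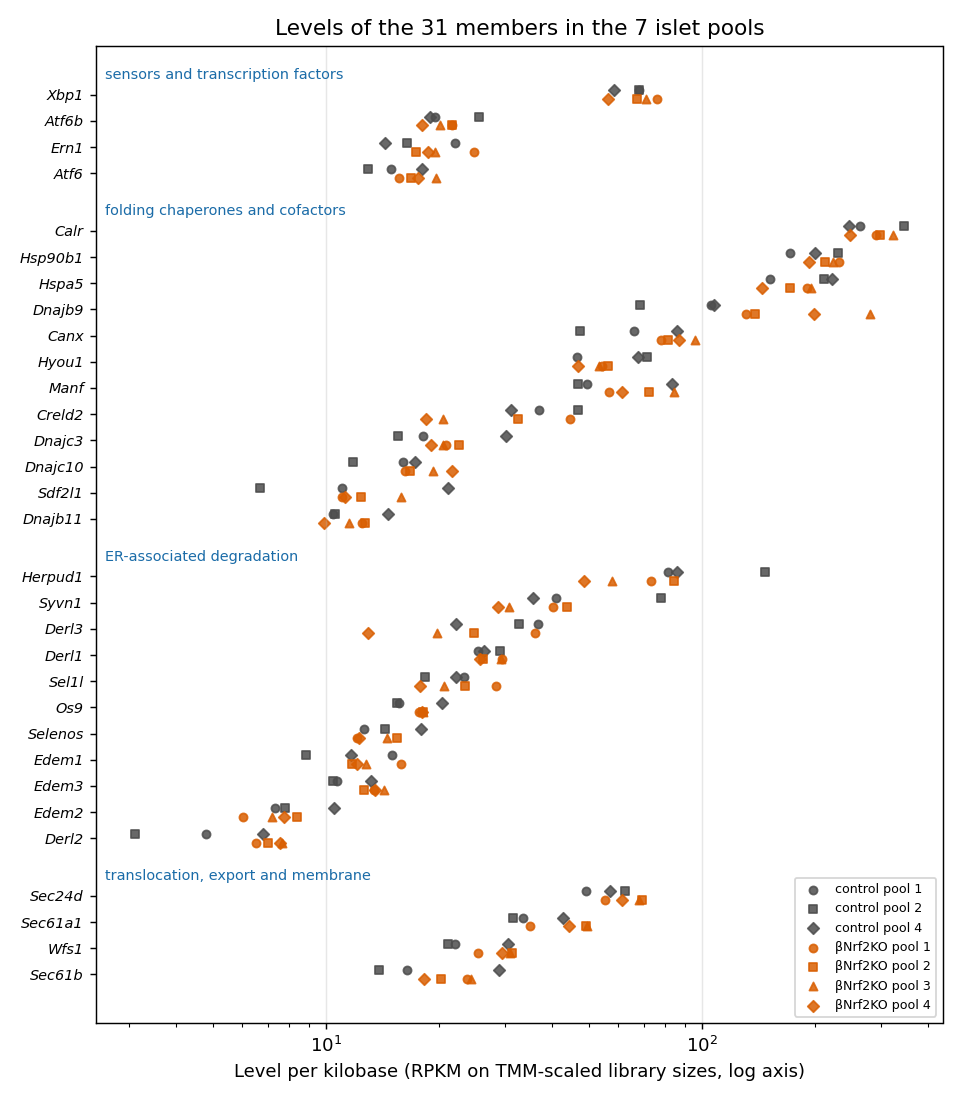
Level per kilobase (RPKM, log axis) of each of the 31 genes in every pool, grouped by role, with control pools in grey and βNrf2KO pools in orange and the marker shape giving the pool number. Calr, Hsp90b1 and Hspa5 have the highest control means, Dnajb9 lies above Hspa5 in βNrf2KO pools 3 and 4, and the grey and orange points separate without overlap in Dnajb9 only.

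Promoters were searched for the elements through which ATF6 and XBP1 act. RefSeq promoter sequences (GRCm38.p6, 250 bases before to 50 after the transcription start) were held for 26 of the 31 genes, and Atf6, Manf, Hyou1, Sec61a1 and Derl1 had no entry. Both strands were searched for the ER stress element ERSE (CCAAT, any 9 bases, CCACG), for ERSE-II (ATTGG, any 1 base, CCACG) and for the unfolded protein response element UPRE (TGACGTGG). The 3 motifs share the letters CCACG or their complement. ERSE was found in 8 of the 26 genes (30.8%) and in 37 of 27025 genes with an entry (0.137%). ERSE-II was found in 2 of the 26 (7.69%) against 0.0444% of all genes, and UPRE in 1 of the 26 (3.85%) against 0.714%. The list was chosen in part as targets of ATF6 and XBP1. A share above that of all genes can therefore follow from this choice alone and is not a result. A match describes letters, not a bound site.

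The matching stretches are shown 5′ to 3′ on the strand of the gene with the motif in capitals, because ATF6 and XBP1 act through these letters and the values of the same genes are described next. In Creld2, Calr and Derl3, and in the stretch of Hsp90b1 nearer the start, the motif lies on the opposite strand, so its complement is printed. Hspa5 and Sec24d are shown with short flanks since an exon in the count annotation reaches them.
Hspa5, chr2:34772020-34772048, plus strand, ERSE: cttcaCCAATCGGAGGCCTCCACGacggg
Hsp90b1, chr10:86705618-86705676, minus strand, ERSE: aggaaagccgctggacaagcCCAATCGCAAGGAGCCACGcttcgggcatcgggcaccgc
Hsp90b1, chr10:86705513-86705571, minus strand, ERSE: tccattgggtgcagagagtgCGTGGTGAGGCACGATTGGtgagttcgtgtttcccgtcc
Calr, chr8:84847055-84847113, minus strand, ERSE: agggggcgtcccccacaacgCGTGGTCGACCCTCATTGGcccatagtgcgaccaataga
Canx, chr11:50325780-50325838, minus strand, ERSE: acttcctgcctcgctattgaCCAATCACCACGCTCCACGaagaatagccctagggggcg
Creld2, chr15:88819500-88819558, plus strand, ERSE: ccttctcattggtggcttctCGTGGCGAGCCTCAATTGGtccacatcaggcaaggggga
Dnajc3, chr14:118937807-118937865, plus strand, ERSE: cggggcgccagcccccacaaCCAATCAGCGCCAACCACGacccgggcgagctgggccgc
Syvn1, chr19:6046512-6046570, plus strand, ERSE: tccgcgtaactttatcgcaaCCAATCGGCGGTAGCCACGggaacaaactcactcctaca
Derl3, chr10:75893222-75893280, plus strand, ERSE: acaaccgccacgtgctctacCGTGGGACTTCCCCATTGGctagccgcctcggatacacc
Herpud1, chr8:94386357-94386407, plus strand, ERSE-II: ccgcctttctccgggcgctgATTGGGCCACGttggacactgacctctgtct
Sec24d, chr3:123267465-123267482, plus strand, UPRE: gcgccTGACGTGGcacta
The ERSE-II match of Dnajb11 lies after the start, at bases 8 to 18.

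**Figure D2:**
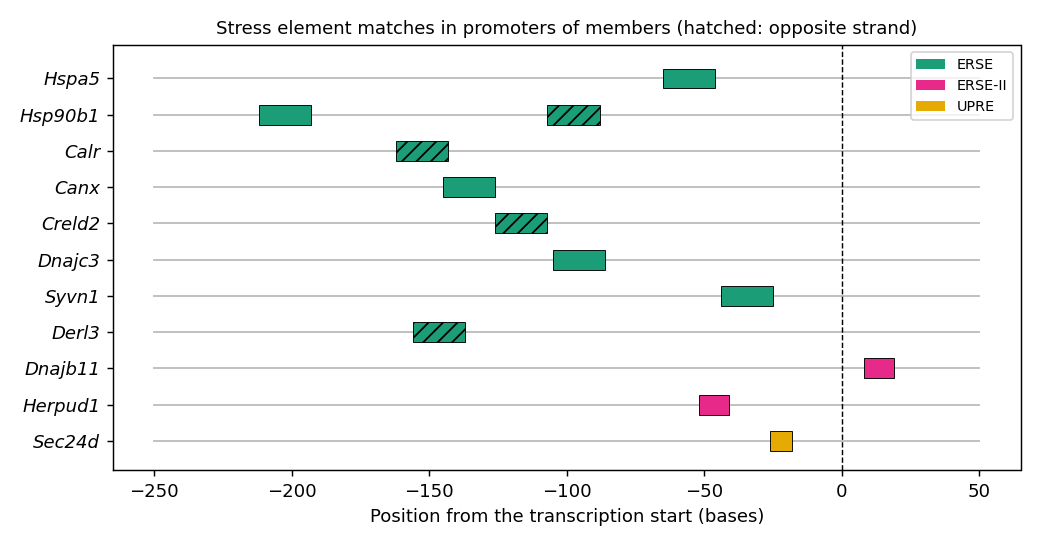
Positions of ERSE, ERSE-II and UPRE matches relative to the transcription start (0 on the axis, in bases) in the 11 genes that held one, with hatched boxes for the opposite strand. The matches lie between 212 bases before the start (Hsp90b1) and 18 bases after it (Dnajb11).

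The series asks what differs in islets without Nrf2 in β-cells, and this response was compared between the genotypes with edgeR's quasi-likelihood test over all tested genes. None of the 31 genes passed an adjusted p of 0.05, and percent called among all tested genes was also 0%. By the same test 3 of the 31 had an unadjusted p under 0.05, against 8.46% of all tested genes. These were Dnajb9 and Derl2 with higher values (3.23% of all genes were so) and Herpud1 with lower values (5.23%). Fitted values were higher in βNrf2KO for 19 genes (49.4% of all tested genes) and lower for 12, with a median log2 fold change of 0.07 against -0.01 over all tested genes. DESeq2 called 0 of the 31 (0.0101% of all tested genes), with the same 3 genes at unadjusted p under 0.05, 2 of them higher (3.84%) and 1 lower (5.71%). With the pool number as a block, 0 passed (0.0704%) and 4 had an unadjusted p under 0.05, 2 higher (6.02%) and 2 lower (6.12%). Leaving out control pool 4 gave 0 past the adjusted threshold (0.00492%) and 10 at an unadjusted p under 0.05, 8 higher (7.64%) and 2 lower (9.32%). The corresponding count in either direction was 6 on leaving out βNrf2KO pool 1 (9.04% of all tested genes). It was 1 on leaving out control pool 2 (2.31%), βNrf2KO pool 3 (3.97%) or βNrf2KO pool 4 (4.22%).

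**Figure D3:**
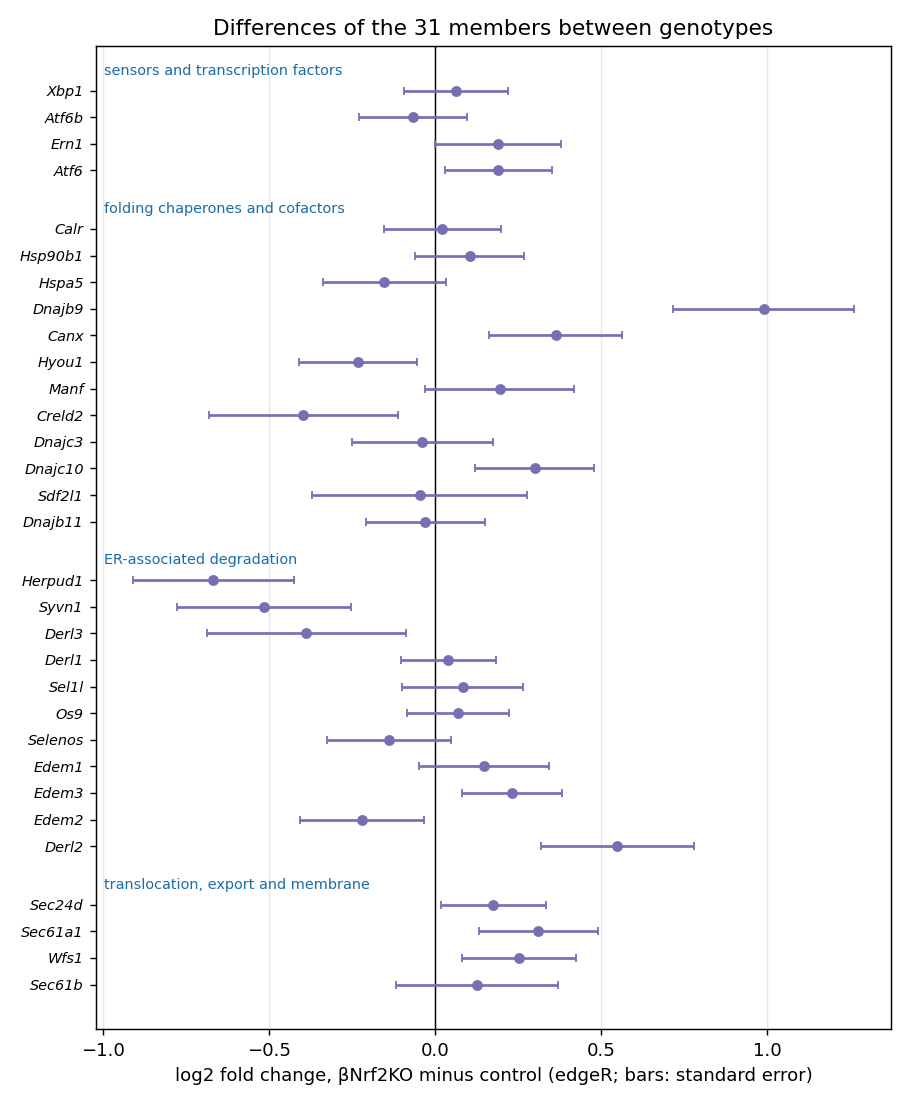
Log2 fold change (βNrf2KO minus control, edgeR) of each of the 31 genes by role, with bars for the standard error. Dnajb9 at 0.99 and Herpud1 at -0.67 lie farthest from 0, and none passed the adjusted threshold.

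Among the sensors and transcription factors, 3 of 4 had higher fitted values and 0 had an unadjusted p under 0.05 (median log2 fold change 0.13). Ern1, the gene of IRE1, stood at 7.49, 7.07 and 6.88 log2 CPM in the control pools (1, 2 and 4) and at 7.67, 7.15, 7.32 and 7.26 in βNrf2KO pools 1 to 4. The ranges overlapped, and the log2 fold change was 0.19 ± 0.19 (standard error, SE, adjusted p = 0.731 by edgeR). Xbp1 stood at 7.79, 7.79 and 7.57 log2 CPM in the control pools and at 7.95, 7.78, 7.85 and 7.52 in the βNrf2KO pools, so βNrf2KO pools held both the highest and the lowest value. It differed by 0.06 ± 0.16 (edgeR adjusted p = 0.899). Atf6 ranged from 6.91 to 7.38 log2 CPM in control and from 7.17 to 7.50 in βNrf2KO pools, a difference of 0.19 ± 0.16 (edgeR adjusted p = 0.685). Its relative Atf6b ranged from 5.71 to 6.14 and from 5.64 to 5.90 log2 CPM, a difference of -0.07 ± 0.16 (edgeR adjusted p = 0.896).

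Dnajb9 held the largest difference of the 31 genes. It encodes ERdj4, a J-domain cochaperone that binds misfolded protein and recruits BiP to IRE1 (ENSMUSG00000014905, chromosome 12, 44205897 to 44210068, minus strand, GRCm38). Control pools 1, 2 and 4 held 3475, 1940 and 6053 counts, or 7.63, 7.00 and 7.65 log2 CPM. βNrf2KO pools 1, 2, 3 and 4 held 4576, 5521, 11127 and 10054 counts, or 7.94, 8.01, 9.03 and 8.53 log2 CPM. Every βNrf2KO pool lay above every control pool, with βNrf2KO pools 3 and 4 highest and control pool 2 lowest. It was the only one of the 31 genes whose pools separated. Of all tested genes 3.19% did so in this direction and 3.81% in the other, so 1 of 31 is near that share. The log2 fold change was 0.99 ± 0.27 and did not pass (edgeR unadjusted p = 0.00370, adjusted p = 0.571). The value was 0.73 ± 0.24 without βNrf2KO pool 3. The 250 bases before its start (chr12:44210069-44210318, GRCm38.p6, minus strand) are printed because this gene had the largest difference of the 31. None of the 3 stress motifs was found in them.
Dnajb9: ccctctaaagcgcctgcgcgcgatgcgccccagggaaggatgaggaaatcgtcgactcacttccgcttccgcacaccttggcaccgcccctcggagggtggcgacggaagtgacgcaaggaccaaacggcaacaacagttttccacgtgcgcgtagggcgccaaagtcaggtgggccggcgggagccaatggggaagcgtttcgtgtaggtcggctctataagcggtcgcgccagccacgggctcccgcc

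The other folding chaperones and cofactors divided into 5 with higher and 6 with lower fitted values, and the median over all 12 was -0.00. Hspa5 stood at 9.33, 9.80 and 9.88 log2 CPM in the control pools and at 9.65, 9.50, 9.69 and 9.25 in βNrf2KO pools 1 to 4. Its highest value was in control pool 4 and its lowest in βNrf2KO pool 4, and it differed by -0.15 ± 0.19 (edgeR adjusted p = 0.778). Hsp90b1 stood at 9.44, 9.86 and 9.65 log2 CPM in control and at 9.87, 9.74, 9.81 and 9.61 in βNrf2KO pools, a difference of 0.10 ± 0.16 (edgeR adjusted p = 0.831). The exons of Hsp90b1 overlap those of 1810014B01Rik on the opposite strand over 1504 of 4032 bases, and whether counting used the strand is not stated in the labels.

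The lectin chaperones, which hold glycoproteins with trimmed sugars, are the soluble Calr and the membrane-bound Canx (calnexin). Calr differed by 0.02 ± 0.18 (edgeR adjusted p = 0.972). Canx stood at 8.27, 7.79 and 8.66 log2 CPM in control and at 8.51, 8.57, 8.81 and 8.67 in βNrf2KO pools. Control pool 2 was the lowest and control pool 4 lay among the βNrf2KO pools, with a difference of 0.36 ± 0.20 (edgeR adjusted p = 0.585). Both promoters hold the ERSE letters shown above.

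Hyou1 (GRP170), a nucleotide exchange factor of BiP, ranged from 8.40 to 9.02 log2 CPM in control and from 8.40 to 8.67 in βNrf2KO pools (-0.23 ± 0.18, edgeR adjusted p = 0.654). Creld2, a secreted and ER-resident disulfide isomerase-like protein, stood at 5.65, 5.997 and 5.41 log2 CPM in control and at 5.93, 5.47, 4.81 and 4.66 in βNrf2KO pools. βNrf2KO pools 3 and 4 lay below every control pool while pool 1 lay near the top, and the difference was -0.40 ± 0.28 (edgeR adjusted p = 0.642). Manf, a secreted survival factor that binds BiP, ranged from 7.37 to 8.20 and from 7.64 to 8.21 log2 CPM (0.19 ± 0.22, edgeR adjusted p = 0.767). Sdf2l1, a partner of ER J-domain proteins, had the widest spread within groups of the 31 genes (SD 0.55 on the log2 scale). It stood at 3.63, 2.90 and 4.55 log2 CPM in control and at 3.62, 3.79, 4.14 and 3.65 in βNrf2KO pools, a difference of -0.05 ± 0.32 (edgeR adjusted p = 0.964).

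The remaining cochaperones carry J domains. Dnajc10 (ERdj5), a reductase that opens disulfide bonds before degradation, ranged from 5.89 to 6.43 log2 CPM in control and from 6.35 to 6.76 in βNrf2KO pools (0.30 ± 0.18, edgeR adjusted p = 0.598). Dnajb11 (ERdj3) differed by -0.03 ± 0.18 and Dnajc3, whose product P58IPK restrains PERK, by -0.04 ± 0.21 (edgeR adjusted p = 0.960 and 0.956). Control pool 4 held the highest value of both.

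ER-associated degradation pulls misfolded proteins out of the ER to the proteasome. Of its 11 genes, 6 had higher and 5 lower fitted values, with a median log2 fold change of 0.04. Herpud1, a membrane scaffold of the degradation complex, had the lowest fold change of the 31 genes (ENSMUSG00000031770, chromosome 8, 94386438 to 94395377, plus strand, GRCm38). Control pools 1, 2 and 4 held 3334, 5212 and 6045 counts, or 7.57, 8.43 and 7.65 log2 CPM. βNrf2KO pools 1, 2, 3 and 4 held 3193, 4202, 2876 and 3087 counts, or 7.42, 7.62, 7.08 and 6.83 log2 CPM. The groups overlapped by a small margin, since βNrf2KO pool 2 lay just above control pool 1, and control pool 2 lay well above all others. The log2 fold change was -0.67 ± 0.24 (edgeR unadjusted p = 0.0181, adjusted p = 0.571), and -0.34 ± 0.21 without control pool 2.

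Syvn1 encodes HRD1, the ubiquitin ligase at the centre of that complex, and Sel1l its stabilizing partner. Syvn1 stood at 7.61, 8.53 and 7.41 log2 CPM in control and at 7.59, 7.71, 7.20 and 7.10 in βNrf2KO pools, again with control pool 2 far above the rest. It differed by -0.52 ± 0.26 (edgeR adjusted p = 0.571), and by -0.09 ± 0.20 without control pool 2. Sel1l ranged from 7.30 to 7.64 and from 7.25 to 7.92 log2 CPM, a difference of 0.08 ± 0.18 (edgeR adjusted p = 0.883).

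The derlins, thought to form the passage through the membrane, differed among themselves. Derl2 stood at 5.28, 4.65 and 5.78 log2 CPM in the control pools and at 5.72, 5.82, 5.95 and 5.93 in βNrf2KO pools 1 to 4. All 4 βNrf2KO pools lay close together, and control pool 4 was within their range. The difference was 0.55 ± 0.23 (edgeR unadjusted p = 0.0356, adjusted p = 0.571), and 0.30 ± 0.18 without control pool 2. Derl3 stood at 5.62, 5.45 and 4.90 log2 CPM in control and at 5.59, 5.05, 4.72 and 4.12 in βNrf2KO pools, with βNrf2KO pool 4 lowest and overlap between the groups. Its fold change was -0.39 ± 0.30 (edgeR adjusted p = 0.659). Derl1 had the narrowest spread within groups of the 31 genes (SD 0.10) and differed by 0.04 ± 0.14 (edgeR adjusted p = 0.933).

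The mannosidase-like proteins Edem1, Edem2 and Edem3, which mark glycoproteins for disposal, differed by 0.15 ± 0.20, -0.22 ± 0.19 and 0.23 ± 0.15. The lectin Os9 and the selenoprotein Selenos, both of the same complex, differed by 0.07 ± 0.15 and -0.14 ± 0.19. The edgeR adjusted p of these 5 genes ran from 0.622 to 0.887.

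All 4 genes of translocation, export and the ER membrane had higher fitted values (median 0.21), and 0 had an unadjusted p under 0.05. Sec61a1, the pore of the translocon, stood at 7.81, 7.73 and 8.17 log2 CPM in control and at 7.87, 8.37, 8.38 and 8.22 in βNrf2KO pools. Control pool 4 lay above βNrf2KO pool 1, so the groups overlapped, and the difference was 0.31 ± 0.18 (edgeR adjusted p = 0.591). Wfs1, an ER membrane protein whose loss causes diabetes in Wolfram syndrome, stood at 6.38, 6.33 and 6.85 log2 CPM in control and at 6.59, 6.89, 6.87 and 6.80 in βNrf2KO pools. Control pool 4 again lay among the βNrf2KO pools, and the difference was 0.25 ± 0.17 (edgeR adjusted p = 0.632). Sec24d, a coat protein of vesicles that leave the ER, differed by 0.17 ± 0.16, and Sec61b, a small subunit of the translocon, by 0.13 ± 0.24. Without control pool 4 the median of these 4 genes was 0.44.

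**Figure D4:**
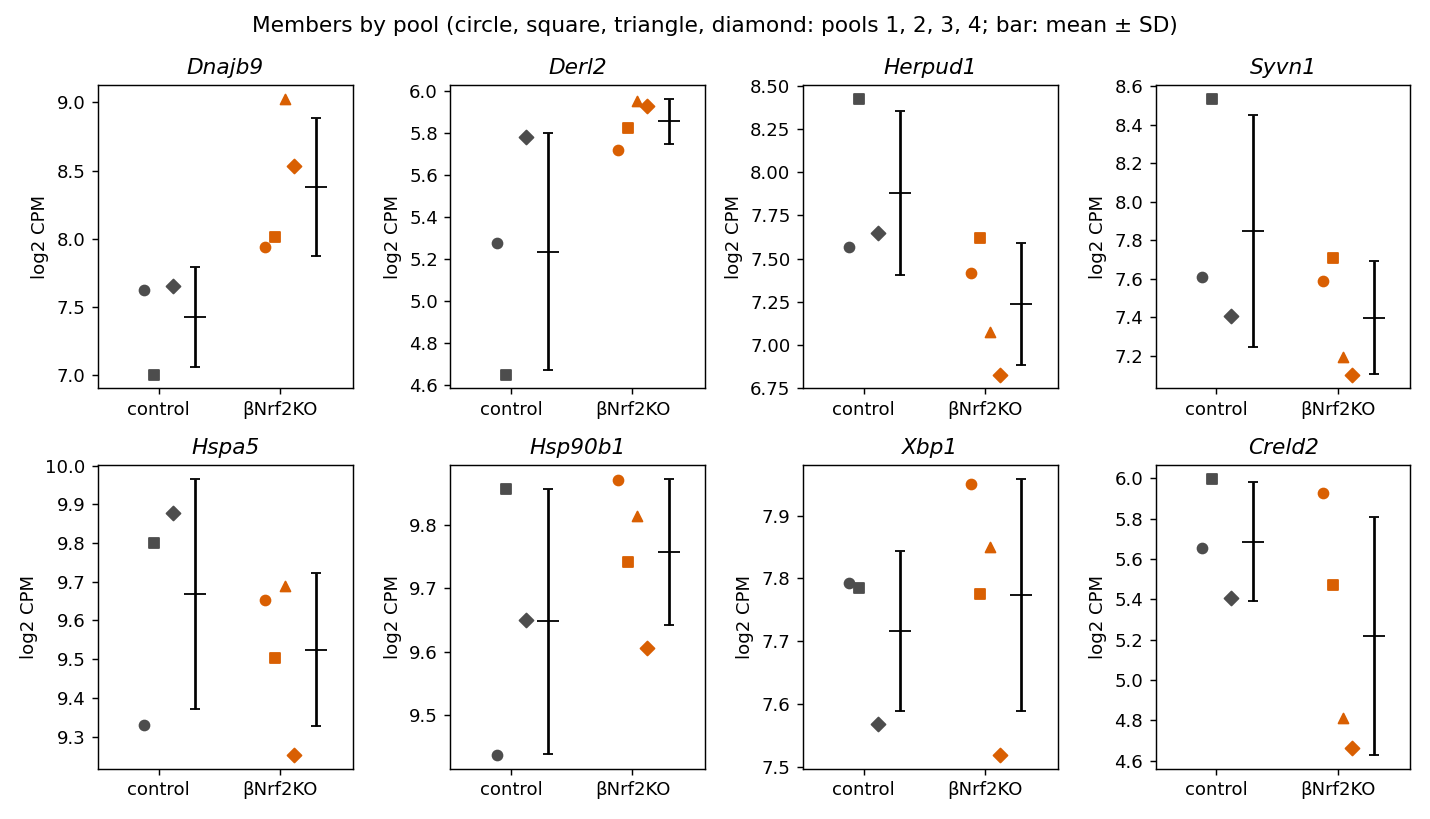
Log2 CPM of 8 genes in each pool, with marker shapes for pool numbers and the mean ± SD beside each group; each panel has its own axis. Dnajb9 is higher in all 4 βNrf2KO pools than in any control pool, while in Herpud1 and Syvn1 control pool 2 lies far above the other pools.

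The differences were unlike one another between pools of the same number. Higher values in βNrf2KO were read for 25 of the 31 genes between the pools numbered 1 (49.6% of all tested genes), for 20 between those numbered 2 (52.2%) and for 10 between those numbered 4 (51%). The median difference of the 31 genes was 0.18, 0.23 and -0.07 log2 CPM in that order. Of the 12 chaperones, 11 were higher in number 1 and 8 were lower in number 4 (median -0.48). Of the 4 sensors and transcription factors, 4 were higher in number 1 and 3 lower in number 4, and of the 11 degradation genes 6 were higher in number 1 and 8 lower in number 4. Hspa5, for example, differed by 0.32, -0.30 and -0.62 log2 CPM in numbers 1, 2 and 4. In all 3 numbers 9 genes were higher (19.1% of all tested genes), namely Ern1, Canx, Dnajb9, Dnajc10, Edem1, Edem3, Derl2, Sec61a1 and Sec24d. In all 3 numbers 3 genes were lower (17.9%), namely Herpud1, Syvn1 and Derl3. Dnajb9 differed by 0.31, 1.01 and 0.88 log2 CPM and Herpud1 by -0.15, -0.81 and -0.82.

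**Figure D5:**
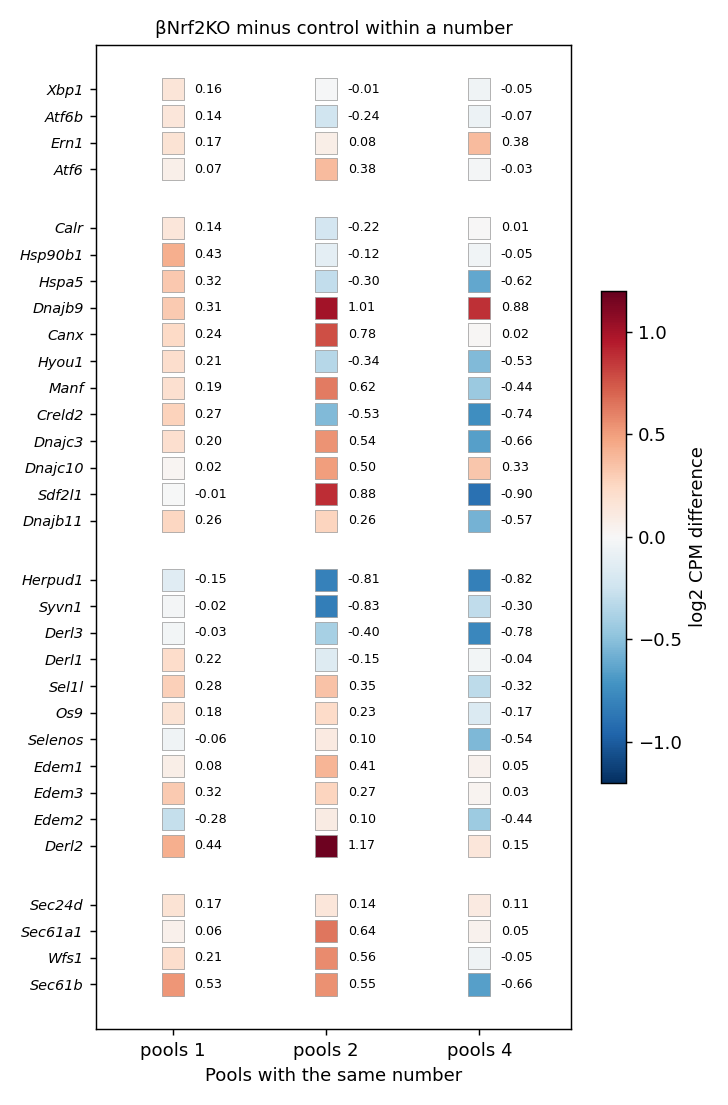
Difference in log2 CPM, βNrf2KO minus control, between pools of the same number for each of the 31 genes, with red for higher and blue for lower values in βNrf2KO. The column of pools 1 is mostly red and that of pools 4 mostly blue, while the Dnajb9 row is red and the Herpud1 row blue throughout.

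Single pools marked the extremes. Control pool 2 held the lowest of the 7 values for 14 of the 31 genes, where it was lowest for 28.5% of all tested genes, and the highest for 6 (26.4% of all). Control pool 4 held the highest value for 8 (12.8% of all) and βNrf2KO pool 4 the lowest for 9 (12.2%). Control pool 2 also had the highest and control pool 4 the lowest mitochondrial share of the control pools. The part of that share in these values was not tested. The median SD within groups was 0.24 on the log2 scale for the 31 genes and 0.36 for all tested genes.

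Of 101 other genes of the ER and its stress response, 99 were tested and 0 passed the adjusted threshold (0% of all tested genes). By edgeR 3 had an unadjusted p under 0.05 with higher (3.23% of all tested genes) and 1 with lower values (5.23%). Pools separated for 2 genes with higher (3.19%) and 1 with lower values (3.81%). These counts are near or below the shares of all tested genes. Fitted values were higher for 75 (49.4% of all tested genes) and lower for 24, with a median log2 fold change of 0.15. That median was 0.04 on leaving out control pool 2 and 0.25 on leaving out control pool 4. The genes of the PERK branch and the integrated stress response had 5 of 12 higher (median -0.10). Among them Ddit3 (CHOP), the transcription factor of prolonged ER stress, stood at 6.19, 6.91 and 6.22 log2 CPM in control and at 6.10, 6.07, 5.49 and 5.79 in βNrf2KO pools. Every βNrf2KO pool lay below every control pool, by -0.60 ± 0.22 in the fit (edgeR adjusted p = 0.571). Asns, the asparagine synthetase induced by ATF4, differed by 0.67 ± 0.29. Lower values were read for Cebpb (-0.55 ± 0.25), Ppp1r15a (-0.58 ± 0.29) and Eif2ak3, the gene of PERK (-0.29 ± 0.21). Chac1, Sesn2 and Ppp1r15b were lower by -0.31, -0.13 and -0.07. Besides Asns, higher values were read for Atf4 (0.17 ± 0.17), Ddit4 (0.19 ± 0.21), Trib3 (0.15 ± 0.52) and Nupr1 (0.57 ± 0.64). A list of ATF6 proteases, related transcription factors and regulators, not all of them activators, had 8 of 9 higher (median 0.22). The proteases Mbtps1 and Mbtps2 differed by -0.08 ± 0.14 and 0.36 ± 0.19. Disulfide and proline isomerases had 11 of 16 higher (median 0.17), led by the oxidase Ero1l (1.33 ± 0.32) and the isomerase Fkbp14 (0.44 ± 0.19), whose pools also separated. Higher fitted values were read for 13 of 17 translocon genes, 14 of 16 glycosylation genes, 11 of 14 genes of the degradation machinery and 13 of 15 export genes, with medians between 0.14 and 0.21 and 0 genes at unadjusted p under 0.05.

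Markers of other cells also differed between the groups, and none of these genes passed the adjusted threshold. Acinar cells of the exocrine pancreas make much secreted protein and express many of the same ER genes. All 15 acinar genes tested of 18 listed had lower fitted values in βNrf2KO (median -0.93), with summed levels of 102 to 491 CPM in control and 79.2 to 271 CPM in βNrf2KO pools and 0 genes at 0 in all pools. Ctrb1, Clps and Cel had the highest levels of these and differed by -0.78 ± 0.70, -1.19 ± 0.49 and -0.88 ± 0.77. With the acinar mean as a covariate Dnajb9 differed by 0.81 ± 0.31 (edgeR unadjusted p = 0.0245), Herpud1 by -0.53 ± 0.26 (0.0614), Derl2 by 0.42 ± 0.24 (0.113) and Syvn1 by -0.34 ± 0.28 (0.256). Derl3 moved from -0.39 to -0.04 ± 0.28 (0.884) and Creld2 from -0.40 to -0.18 ± 0.29 (0.540). Other genes moved away from 0, such as Ern1 from 0.19 to 0.35 ± 0.22 (0.138) and Sdf2l1 from -0.05 to -0.23 ± 0.32 (0.488). With that covariate 1 of the 31 genes had higher values at an unadjusted p under 0.05 (2.25% of all tested genes) and 0 had lower values (3.03%). All 11 mesenchymal and smooth muscle genes had lower fitted values as well (median -0.82, 667 to 1652 CPM in control, 579 to 1115 in βNrf2KO pools). So had all 8 neural genes (median -0.55, 85.9 to 134.5 and 70.3 to 89.9 CPM). Lower values at an edgeR unadjusted p under 0.05 were read for 6 mesenchymal, 2 neural, 2 acinar and 1 endocrine genes (5.23% of all tested genes). Higher values were so read for 1 ductal gene (3.23%). Pools separated for 1 mesenchymal, 1 neural and 1 endocrine gene with lower values (3.81%) and for 1 ductal gene with higher values (3.19%). No covariate was fitted for the mesenchymal or neural genes. Leukocyte genes (53.4 to 84.6 and 43.4 to 68.6 CPM), ductal genes (166 to 203 and 187 to 239 CPM) and endothelial genes (1133 to 1324 and 1212 to 1559 CPM) were mixed in direction. The summed levels of all 7 marker lists overlapped between the groups, and each list had 0 genes at 0 in every pool. The part of these other cell types in the values of the 31 genes was not tested.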

How the data were processed

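The authors deposited raw counts per gene for 7 libraries of ribosome-depleted total RNA. The submitters' processing notes list STAR 2.5.2b, Trimmomatic 0.36, bcl2fastq 2.20 and, for counting, featureCounts from Subread 1.5.2. Whether counting used the strand, how multiply matching reads were handled and which annotation release was used are not given in the sources used here. Although GRCm39 is named there, 91.4% of IDs shared with GENCODE M21 had its GRCm38 start and end, so coordinates are GRCm38. The Cre entry did not enter the library sizes or the tests.

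Genes were tested with edgeR 4.0.16 in R 4.3.3 (TMM, filterByExpr, robust quasi-likelihood test, two-sided, Benjamini-Hochberg adjustment over 19893 genes, threshold 0.05). Log2 CPM used a prior count of 2. Deviations from the group means correlated across genes between same-numbered pools (r = 0.376, 0.229 and 0.323 for numbers 1, 2 and 4). Pairs of other numbers ran from -0.353 to 0.241, the highest being control pool 4 with βNrf2KO pool 3, above the value for number 2. The main test did not use the numbers. They were taken as pairs only in the block and in the differences between same-numbered pools, because each same-numbered pair exceeded 0.1. That is only a hint from the data, since no label explains the numbers. The pair of control pool 4 and βNrf2KO pool 3 exceeded 0.1 as well. Alternatives were DESeq2 1.42.0, limma 3.58.1 (voom), other scalings and filters, a block, an acinar covariate and leaving out each pool. Exons of Hsp90b1, Manf, Syvn1, Derl2 and Sec61a1 overlap other genes. Always described were Hspa5, Hsp90b1, Xbp1, Ern1, Atf6, Atf6b, Wfs1, Herpud1, Dnajb9, Sdf2l1, Manf, Creld2, Syvn1 and Sel1l, and the 5 members with the smallest p in each direction. Members and lists were chosen with earlier results of these data known.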

Additional observations from a re-analysis of the deposited data

How the results depend on the processing

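Of the 31 genes, 0 passed the adjusted threshold under any of the 15 alternatives or at an adjusted p of 0.1, and the same held for the other ER genes. With the pool number as a block (replicate block), 4 of the 31 had an unadjusted p under 0.05, the median was 0.08, and no call changed. The count at unadjusted p under 0.05 (3) was 1 with the acinar covariate and ran from 1 to 10 when a pool was left out. When each pool was left out, the median log2 fold change ran from 0.0024 to 0.14 for the 31 genes, from -0.074 to 0.22 for chaperones, from 0.13 to 0.44 for translocation and export, and from 0.043 to 0.25 for the other ER genes. The sign held for 19 genes throughout, and 12 turned when some pool was left out, all with fold changes within 0.15 of 0. Their ranges were -0.15 to 0.078 (Atf6b), -0.012 to 0.14 (Xbp1), -0.075 to 0.18 (Calr), -0.36 to 0.50 (Sdf2l1), -0.12 to 0.15 (Dnajb11), -0.23 to 0.30 (Dnajc3), -0.060 to 0.18 (Sel1l), -0.025 to 0.35 (Edem1), -0.0086 to 0.095 (Derl1), -0.0047 to 0.21 (Os9), -0.25 to 0.0089 (Selenos) and -0.079 to 0.51 (Sec61b). Calr was -0.023 and Dnajc3 0.024 with the block, Os9 -0.011 and Sec61b -0.023 with the acinar covariate, and Sdf2l1 0.0063 and Sel1l -0.0082 with limma-voom. The cause of these turns was not tested. With 3 control pools, 1 pool moved the counts by over 1.5 times, which limits what these data can show of differences of the sizes read here. A gene that did not pass is not thereby shown to be unchanged.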

Other observations

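A ratio of counts within a pool does not depend on library size or scaling. The pair Dnajb9 and Herpud1 was chosen after their values were seen, so the ratio is a description with no test. The controls (pools 1, 2 and 4) had ratios of 1.04, 0.372 and 1.00. Ratios of 1.43, 1.31, 3.87 and 3.26 were read for βNrf2KO pools 1, 2, 3 and 4. Every βNrf2KO pool lay above every control pool, with βNrf2KO pools 3 and 4 highest. Dnajb9 had the highest and Herpud1 the lowest fold change of the listed genes, so this separation can follow from the choice of the pair. The ratio of Dnajb9 to Hspa5 counts was 0.307, 0.144 and 0.214 in control and 0.304, 0.356, 0.632 and 0.606 in βNrf2KO pools, where control pool 1 and βNrf2KO pool 1 overlapped. For Herpud1 to Hspa5 it was 0.295, 0.386 and 0.214 in control and 0.212, 0.271, 0.163 and 0.186 in βNrf2KO pools. The groups overlapped there too.

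Of the 26 genes with a promoter entry, the 11 with ERSE, ERSE-II or UPRE had 4 higher and 7 lower fitted values (median -0.04, from -0.67 to 0.36). The 15 without these letters had 11 higher and 4 lower (median 0.13, from -0.22 to 0.99). The difference between these sets was not tested. The 11 tested genes outside the list that hold ERSE had 6 higher and 5 lower fitted values (median 0.11). By edgeR 3 of these 11 had an unadjusted p under 0.05 (8.46% of all tested genes), and 0 passed the adjusted threshold. Outside the list, genes with ERSE-II had 4 higher and 2 lower fitted values (median 0.01). Those with UPRE had 67 higher and 60 lower (median 0.01). Nrf2 binds the antioxidant response element, and its core (TGACNNNGC, both strands) was searched as well. In all, 3781 of 27025 genes with an entry (13.99%) held this core. It was found in 7 of the 26 promoters of the list (26.9%). The difference between these shares was not tested, and a match describes letters, not a bound site. The 7 were Ern1, Atf6b, Calr, Sdf2l1, Herpud1, Sec61b and Sec24d, with 4 higher and 3 lower fitted values (median 0.02). In Sec24d this match overlaps the UPRE letters.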
